A study of Mus musculus with 6 samples.

Results

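MiR-143 and miR-145, the miRNAs most closely tied to vascular smooth muscle cells (SMCs), were followed in whole aortas profiled on TaqMan qRT-PCR cards, which quantify each miRNA by its own real-time PCR. Their assays were found by exact name, mmu-miR-143 and mmu-miR-145, and are 2 of the 596 mouse miRNA assays in the data. Each was measured once per sample, and both lie on card A of the array pair. The aortas came from 6 female Apoe-/- mice, which develop atherosclerosis. All of them carried VE-Cadherin-CreERT2, a Cre recombinase that is driven by an endothelial promoter and activated by Tamoxifen (TMX). All received TMX on 5 days at 2 mg per 20 g body weight. At an age of 6-8 weeks, after the TMX course, they were put on a high-fat diet (HFD) for 12 weeks, which held 21% fat, 19.5% casein and 0.15% cholesterol. In 3 mice both Dicer1 alleles were floxed (Dicer1flox/flox, EC-Dicerflox), and the other 3 were littermates with intact alleles (Dicer1WT/WT, EC-DicerWT). The comparison asks how miRNAs of the aorta differ when Dicer is deleted in endothelial cells (ECs). The smooth muscle of EC-Dicerflox mice was not the target of the deletion, and Dicer mRNA is not measured on the cards. In whole aortas, fewer cells of a type and less RNA per cell cannot be told apart.

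MiRNAs lower the translation and stability of target mRNAs, which they recognise mainly through a short seed near their 5′ end. MiR-143 and miR-145 are cut from a shared primary transcript, which serum response factor and myocardin switch on in smooth muscle. They are known to favour the contractile over the proliferating SMC phenotype, and miR-145 is known to repress Klf4 and Klf5. Dicer cuts both from their hairpin precursors. In the RefSeq annotation of GRCm38.p6, used for names only, Mir143 and Mir145a are neighbouring miRNA genes that both overlap the long noncoding RNA gene Carmn, also called Mir143hg.

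Several results below set the members against markers of other cells. The mature sequences of 2 of these markers are shown, because 1 stands for the endothelium and the other is made without Dicer. MiR-126-3p is the best known endothelial miRNA, and miR-451, abundant in erythrocytes, is processed by Argonaute 2 in place of Dicer. The sequences are those of RefSeq on GRCm38.p6 under the current names miR-126a-3p (chr2:26591402-26591423, plus strand) and miR-451a (chr11:78073186-78073207, plus strand). Capitals mark the seed, bases 2 to 8 from the 5′ end.
miR-126-3p: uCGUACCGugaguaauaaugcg
miR-451: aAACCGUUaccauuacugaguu

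Each value is a cycle threshold (Ct): the amplification cycle whose fluorescence passes a set mark, so that a lower Ct means more RNA. Assays without a signal are listed at 40. Between 421 and 454 miRNAs were detected per sample. The reference Ct, the mean of the 5 control small RNAs snoRNA135, snoRNA202, U6, U87 and Y1, lay between 19.4 and 20.4. Replicate 3 of either group stood apart in some assays. In 22 miRNA assays, miR-143 and miR-145 not among them, both of these samples were over 2 cycles beyond the range of the remaining 4. Other pairs of samples were not counted in this way, so it is not known whether 22 is unusual.

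Both members were among the earliest signals of the aorta. The Ct of miR-145 was 14.5, 14.7 and 14.7 in EC-Dicerflox replicates 1, 2 and 3 and 14.6, 14.7 and 14.8 in EC-DicerWT replicates 1, 2 and 3. By mean Ct (14.7) it ranked 1 of 596 assays. Within single samples it ranked 3 of 596 in EC-Dicerflox replicate 3 and 1 in the other 5, and on card A it ranked 1 in all 6. The Ct of miR-143 was 16.0, 16.4 and 16.5 in EC-Dicerflox replicates 1, 2 and 3 and 15.8, 15.9 and 16.4 in EC-DicerWT replicates 1, 2 and 3. Its mean Ct of 16.2 ranked 5 of 596. Within single samples it ranked between 6 and 10 of 596, and between 3 and 5 on card A. The next assay after miR-145 in this order was miR-2134, which was later in 6 of 6 samples by 0.41 ± 0.13 cycles (SD, n = 6). MiR-24 preceded miR-143 in every sample by 0.48 to 0.82 cycles. MiR-1937c followed miR-143 with a mean difference of 0.0070 ± 0.22 cycles (SD, n = 6), so these neighbours did not differ beyond their spread. MiR-2134 and miR-1937c lie on card B, and the same control RNA can differ between the cards. In EC-Dicerflox replicate 1, snoRNA135 had a Ct of 22.3 on card A and 21.5 on card B. SnoRNA202 had 16.6 and 16.8. The part of the card in the differences from miR-2134 and miR-1937c was not tested. Since assays can differ in efficiency, this is an order of Ct values and not of molecule numbers.

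**Figure D1:**
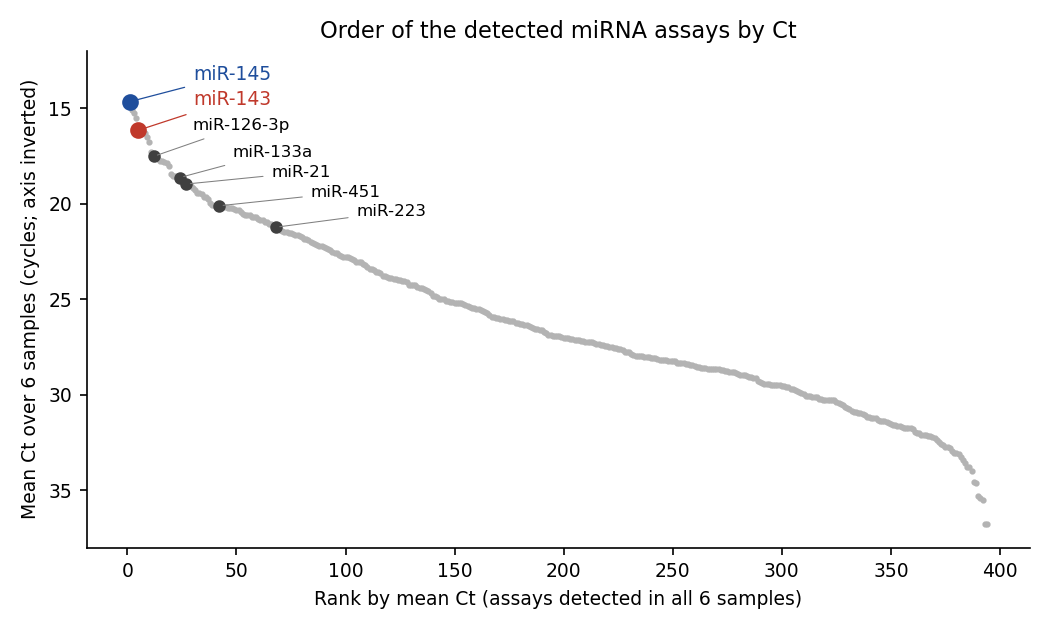
Mean Ct over the 6 samples (cycles, inverted axis) against rank for the 394 miRNA assays detected in all samples, each a grey point. MiR-145 (blue, mean Ct 14.7) and miR-143 (red, mean Ct 16.2) sit at the early end, before the endothelial miR-126-3p (17.5), miR-133a (18.6), miR-21 (19.0), miR-451 (20.1) and miR-223 (21.2), drawn in black.

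MiR-145 was the steadiest of all detected assays in raw Ct. Its values spanned 0.256 cycles, with a SD of 0.0893 over the 6 samples, the smallest among the 394 miRNAs detected in all of them. MiR-143 spanned 0.664 cycles with a SD of 0.28, near the median SD of 0.29 for the 38 miRNAs with a mean Ct under 20. The members also followed the overall signal of a sample unequally. When the mean Ct of all miRNAs detected in every sample rose by 1 cycle, the fitted Ct of miR-143 rose by 0.66 cycles and that of miR-145 by 0.15 cycles, against a median of 0.56 for the 38 early miRNAs. Relative to the control RNAs the order of the spreads turned. The within-group SD of the level was 0.36 for miR-145 and 0.21 for miR-143, with a median of 0.27 for the early miRNAs. The reference Ct itself spanned 0.916 cycles, more than either member.

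**Figure D2:**
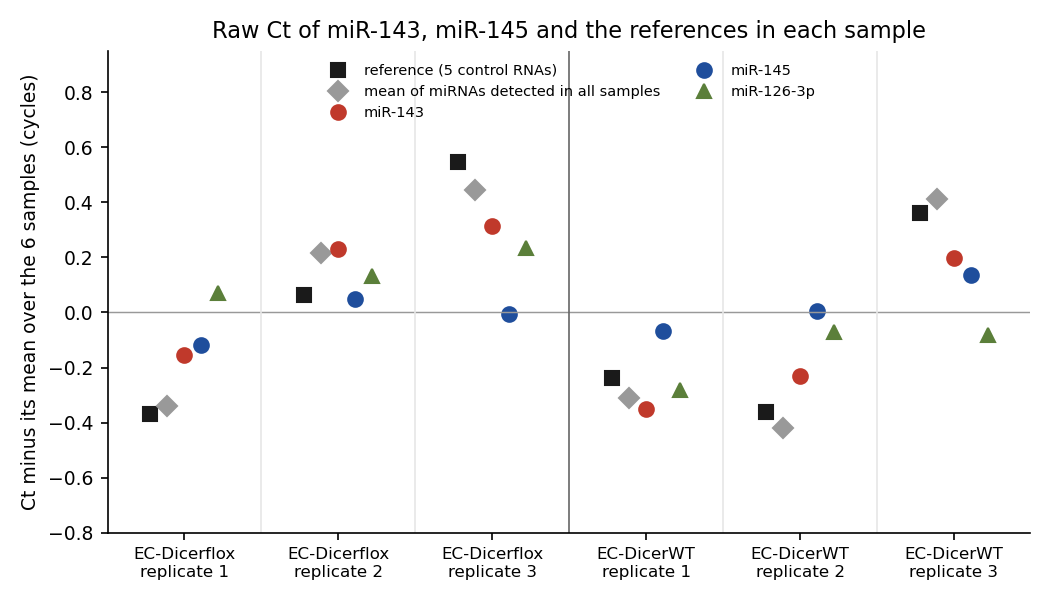
Raw Ct minus its own mean over the 6 samples (cycles) for miR-143, miR-145, miR-126-3p, the reference of 5 control RNAs and the average over miRNAs with a signal in every sample; each point is a sample, and a point above 0 has less signal than average. The points of miR-145 span 0.256 cycles, those of miR-143 0.664 and those of the reference 0.916.

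**Figure D3:**
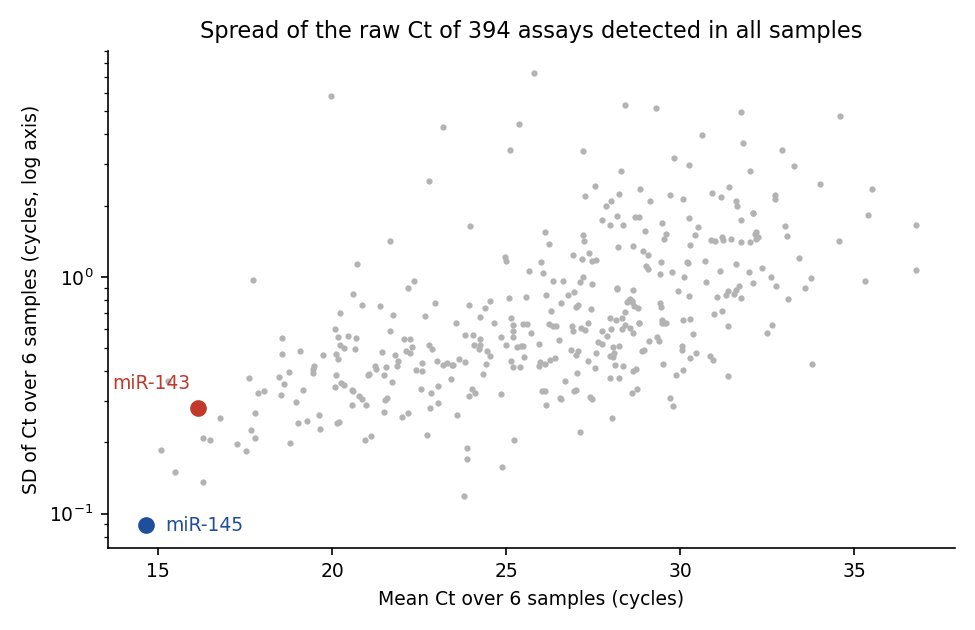
SD of the raw Ct over the 6 samples (cycles, log axis) against mean Ct (cycles) for 394 miRNA assays, each a point. MiR-145 has the smallest SD (0.0893), and miR-143 (0.28) lies among the other early assays.

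Neither miR-143 nor miR-145 passed the test between the groups. Levels are given on the log2 scale as the number of cycles by which a miRNA preceded the reference Ct, which assumes that every cycle doubles the product. The level of miR-143 was 3.44, 3.49 and 3.89 in EC-Dicerflox replicates 1, 2 and 3 and 3.76, 3.52 and 3.81 in EC-DicerWT replicates 1, 2 and 3. The groups overlapped, and the highest value belonged to EC-Dicerflox replicate 3. EC-Dicerflox aortas averaged 3.60 ± 0.25 (SD, n = 3), and EC-DicerWT aortas averaged 3.70 ± 0.16 (SD, n = 3). The difference, EC-Dicerflox minus EC-DicerWT, was -0.10 ± 0.23 (SE). This is 93.6% of the EC-DicerWT level (unadjusted limma P of 0.70, adjusted 0.99). Its 95% interval runs from -0.69 to 0.49, or from 62.2% to 141% of the EC-DicerWT level. The median difference of all 439 tested miRNAs was also -0.10.

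The level of miR-145 was 4.89, 5.16 and 5.69 in EC-Dicerflox replicates 1, 2 and 3 and 4.97, 4.77 and 5.37 in EC-DicerWT replicates 1, 2 and 3. Replicate 3 was the highest of its group in both, and the groups overlapped. EC-Dicerflox aortas averaged 5.25 ± 0.41 (SD, n = 3), and EC-DicerWT aortas averaged 5.04 ± 0.30 (SD, n = 3). EC-Dicerflox was higher by 0.21 ± 0.31 (SE), or 116% of EC-DicerWT (unadjusted limma P of 0.53, adjusted 0.99). The 95% interval, from -0.58 to 1.00, covers 66.9% to 200.5% of the EC-DicerWT level. A change of either member within these limits was therefore not resolved with 3 mice per group. Across all assays, 0 of 439 miRNAs (0%) had an adjusted limma P under 0.05 and 21 (4.78%) an unadjusted limma P under 0.05, and the members were in neither set. In raw Ct, miR-145 differed by -0.0503 cycles between the groups (exact permutation P = 0.5) and miR-143 by 0.26 cycles (exact permutation P = 0.2).

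The sign of the miR-145 difference was not fixed. It was -0.17 with U6 alone as the reference and -0.01 without EC-Dicerflox replicate 3. On card B the Ct of U6 was 16.6 in EC-DicerWT replicate 1 and 15.1 to 15.4 in the other 5 samples, while on card A all 6 lay between 15.6 and 15.8. With U6 on card A alone the difference was 0.07. MiR-143 was lower under each of the 19 alternative settings, from -0.47 with U6 alone to -0.01 without EC-Dicerflox replicate 1. The median difference of all tested miRNAs in these 2 settings was -0.48 and -0.04. With no detection filter that median was 0.0067, while miR-143 stayed at -0.10. That unfiltered set of 596 assays includes 106 without a signal in any sample. The levels of these follow the reference alone, which was 0.16 cycles later in EC-Dicerflox. Whether the constant sign is particular to miR-143 was not tested. In replicates 1 and 2 alone the differences were -0.18 for miR-143 and 0.15 for miR-145, with an adjusted limma P of 0.93 for both.

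**Figure D4:**
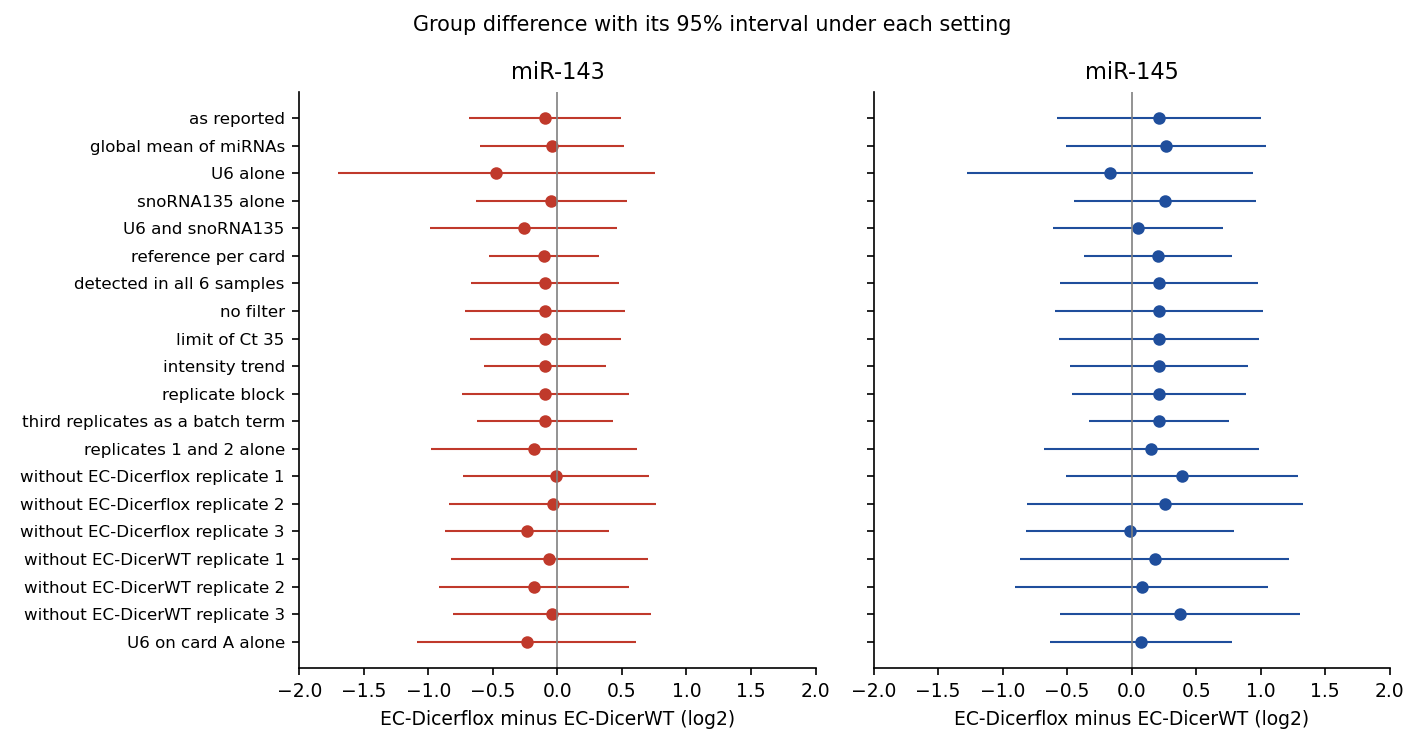
Difference EC-Dicerflox minus EC-DicerWT (log2; points) with its 95% limma interval (lines) for miR-143 (left) and miR-145 (right), as reported and under each alternative setting. Every interval includes 0, and the point of miR-145 falls below 0 for U6 alone (-0.17) and when EC-Dicerflox replicate 3 is omitted (-0.01).

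The difference between both members within a sample needs no reference RNA. It is free of the sample's input only if both assays follow that input equally. Their fitted slopes on the sample mean Ct were 0.66 for miR-143 and 0.15 for miR-145. The mean Ct of the miRNAs detected in all samples was 0.21 cycles later in EC-Dicerflox than in EC-DicerWT. The part of input in the differences below was not tested. The level of miR-145 exceeded that of miR-143 by 1.46, 1.67 and 1.81 log2 units in EC-Dicerflox replicates 1, 2 and 3. In EC-DicerWT replicates 1, 2 and 3 it did so by 1.21, 1.25 and 1.55. The groups overlapped in a single pair of values, EC-Dicerflox replicate 1 and EC-DicerWT replicate 3. If both assays were equally efficient, these differences would be ratios of 2.31 to 3.50. The group averages were 1.65 ± 0.18 (SD, n = 3) for EC-Dicerflox and 1.34 ± 0.19 (SD, n = 3) for EC-DicerWT. Their difference of 0.31 had an exact permutation P of 0.2, where 0.1 is the smallest P that 3 against 3 samples allow. Of the 9 differences between an EC-Dicerflox and an EC-DicerWT sample, 8 were above 0, and they ranged from -0.10 to 0.60. The value was 0.33 in replicates 1 and 2 alone.

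Each member was next set against markers of other cell types and of SMC state in the same sample. This gives 11 within-sample comparisons together with the members' own. The markers were miR-126-3p for endothelium, miR-223 for leukocytes, miR-451 for erythrocytes, miR-133a for striated muscle and miR-21, which rises in proliferating SMCs. MiR-126-3p is itself made by Dicer, so it is not independent of the deletion in ECs. In the paper, silencing Dicer in human aortic ECs did not lower miR-126-3p. MiR-133a also restrains SMC growth, so it and miR-21 do not set smooth muscle apart from other cells. In 1 of the 11 the groups did not overlap. MiR-145 minus miR-126-3p was 3.05, 2.95 and 3.10 in EC-Dicerflox replicates 1, 2 and 3 and 2.65, 2.78 and 2.64 in EC-DicerWT replicates 1, 2 and 3, on the log2 scale. All EC-Dicerflox values were above all EC-DicerWT values. The means were 3.03 ± 0.08 (SD, n = 3) and 2.69 ± 0.08 (SD, n = 3), a difference of 0.34 with an exact permutation P of 0.1, the smallest possible. After Benjamini-Hochberg adjustment over the 11 comparisons this P was 0.66.

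Such a separation was also seen against other miRNAs. Of 393 other miRNAs detected in all samples, 57 (14.5%) separated the groups in the same direction when set against miR-145. The raw Ct of miR-126-3p, not corrected for input, was 17.6 to 17.8 in EC-Dicerflox and 17.2 to 17.5 in EC-DicerWT aortas, without overlap (exact permutation P = 0.1). It was later in EC-Dicerflox by 0.29 cycles, beside 0.16 for the reference and 0.21 for the mean of miRNAs detected in all samples. The share of all assays without overlap in raw Ct was not counted, so it is not known whether this separation is unusual. Relative to the control RNAs, miR-126-3p differed by -0.13 with overlapping groups (unadjusted limma P of 0.70). On that scale 43 of 439 tested miRNAs did not overlap. With miR-126-5p, the opposite strand of the same hairpin, in place of miR-126-3p, the difference for miR-145 was -0.04 (exact permutation P = 0.9). That choice was made after the values were seen. MiR-143 minus miR-126-3p differed by 0.03 between the groups, with overlapping values (exact permutation P = 0.9). The other differences ranged from -0.17 for miR-143 minus miR-133a to 0.42 for miR-145 minus miR-223, and their exact permutation P values lay between 0.2 and 1. Single mice moved both of these extremes: miR-143 minus miR-133a was -0.05 without EC-Dicerflox replicate 1, and miR-145 minus miR-223 was 0.16 without EC-Dicerflox replicate 3.

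**Figure D5:**
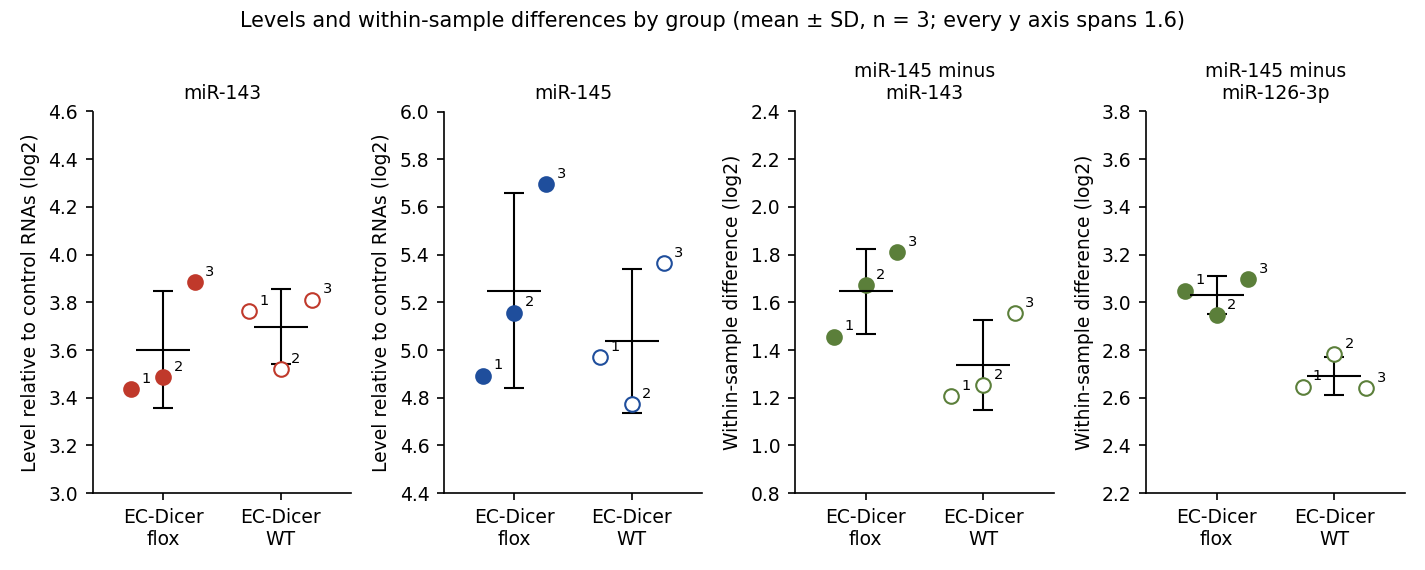
Values per mouse (points, numbered by replicate; filled for EC-Dicerflox, open for EC-DicerWT) with the group mean and SD (n = 3, bars) for the level of miR-143, the level of miR-145, and the within-sample differences miR-145 minus miR-143 and miR-145 minus miR-126-3p, all on the log2 scale with axes of equal span that do not start at 0. The groups overlap in the first 3 panels and do not in the last, where the means are 3.03 and 2.69.

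No marker of another cell type passed the adjusted threshold. Of the erythrocyte miRNAs, miR-451 differed by 0.05 and miR-486 by 0.02. Of 6 leukocyte miRNAs 5 were lower and 1 was higher, with a median of -0.19. Over all 439 tested miRNAs, 271 were lower, with a median of -0.10. The mean level of the 6 leukocyte miRNAs lay between -2.89 and -2.40 in EC-Dicerflox and between -2.72 and -2.13 in EC-DicerWT aortas. Of the endothelial strands, miR-126-3p differed by -0.13 and miR-126-5p by 0.25. Of the 6 striated muscle assays on the cards 4 were tested, with 2 lower and 2 higher and a median of -0.04. MiR-133a differed by 0.07, miR-133b by 0.23 and miR-1 by -0.15, while the heart miRNA miR-208 differed by -1.65 at a mean Ct of 31.6 (unadjusted limma P of 0.024, adjusted limma P of 0.98). The cardiac and skeletal muscle miRNAs miR-208b and miR-499 had mean Ct values of 38.1 and 39.3 and were below the detection filter. The part of any of these markers in the values of miR-143 and miR-145 was not tested.

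Both members were compared with other miRNAs that share a primary transcript. Among 14 such pairs detected in all samples, the SD of the within-sample Ct difference was 0.23 cycles for miR-143 and miR-145, which ranked 4 from the smallest. The range was from 0.16 for miR-23b and miR-27b to 1.31 for miR-182 and miR-183, with a median of 0.34. MiR-195 and miR-497 (0.18) and miR-17 and miR-20a (0.22) were the other pairs with a smaller SD. The strands of miR-126, cut from a single hairpin, had a SD of 0.36. The members were the pair with the earliest mean Ct values (16.2 and 14.7), while miR-182 and miR-183 had 24.8 and 29.6. A relation of this SD to mean Ct was not tested. Any difference between the groups also enters this SD. For miR-182 and miR-183 that difference was 2.18 cycles (exact permutation P = 0.1), and the within-group SD was 0.59. The within-group SD was 0.18 for miR-143 and miR-145 and was largest for miR-200a and miR-200b (0.99).

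The members were not each other's closest match. By the SD of the within-sample Ct difference over the 6 samples, miR-676*, miR-29a, miR-23b, miR-152 and miR-26b were most like miR-143, with SDs from 0.0517 to 0.0863 cycles. MiR-29a, known for repressing collagens, stayed 1.58 to 1.71 cycles behind miR-143 in all samples. For miR-145 the closest were miR-2182, miR-24, miR-30b, miR-2134 and miR-9, with SDs from 0.0821 to 0.14 cycles. Among 393 miRNAs, miR-145 ranked 73 in likeness to miR-143, and miR-143 ranked 29 in likeness to miR-145. The measure favours assays with a small spread of their own, and all values share the input of a sample. It is a description over 6 samples.

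Across the 6 samples the correlation between the levels of the members did not pass the threshold. Pearson's r was 0.75 (exact permutation P = 0.094) and Spearman's rho 0.71 (exact permutation P = 0.14, n = 6). Without EC-Dicerflox replicates 1 and 3, the samples farthest from the median of miR-143, r was 0.48. On raw Ct, where no shared reference enters, r was 0.62 (exact permutation P = 0.21) and rho 0.37 (exact permutation P = 0.50), and r was 0.72 without EC-Dicerflox replicate 3 and EC-DicerWT replicate 1. With the global mean of detected miRNAs as the reference, r was 0.80 (exact permutation P = 0.076) and rho 0.77 (exact permutation P = 0.10), and r was 0.67 without EC-DicerWT replicates 2 and 3. With U6 alone r was 0.92 (exact permutation P = 0.039) and rho 0.60 (exact permutation P = 0.24), and r fell to 0.43 without EC-DicerWT replicates 1 and 2. Adjusted over the 8 coefficients on 4 scales, the P values lay between 0.21 and 0.50. Deviations from the group means had an r of 0.93 on the levels and 0.94 on raw Ct, given as a description without a test.

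Other miRNAs described in SMC phenotype switching were read as lists. Of 7 miRNAs that restrain SMC proliferation, 6 were tested, with 2 lower and 4 higher and a median difference of 0.04. They ranged from -0.15 for miR-1 to 0.36 for miR-204, and miR-133a, which restrains SMC growth as well as marking striated muscle, differed by 0.07. MiR-490 was below the detection filter. Of 8 miRNAs linked to the proliferating phenotype, 5 were lower and 3 higher, with a median of -0.05. In this list miR-222 (-0.42) and its cluster partner miR-221 (-0.40), which promote SMC proliferation, were lowest. The paper also cites miR-221 as a miRNA of higher turnover in ECs after Dicer silencing, and whole-aorta values do not assign it to a cell type. MiR-146a, in this list, was counted with the leukocyte miRNAs as well. MiR-21 differed by -0.10 and miR-24 by 0.01. Of both lists, 0 passed either threshold, beside 21 of 439 for all tested miRNAs at the unadjusted limma threshold. Over all tested miRNAs 271 were lower and 168 higher.

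An assay for the passenger strand was present for miR-145 only. MiR-145*, on card B, was detected in all samples but late. Its Ct was 34.0, 35.9 and 37.8 in EC-Dicerflox replicates 1, 2 and 3 and 38.7, 37.3 and 36.8 in EC-DicerWT replicates 1, 2 and 3. The groups overlapped, and EC-Dicerflox replicate 1 had the earliest Ct. The level differed by 1.86 ± 0.99 (SE) with a 95% interval from -0.63 to 4.36 (adjusted limma P of 0.99, unadjusted limma P of 0.11). The interval of miR-145 itself, from -0.58 to 1.00, was narrower.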

How the data were processed

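Per the study's methods, total RNA was reverse transcribed and preamplified with a rodent primer pool and run on TaqMan array cards. The authors deposited raw Ct values for 596 miRNA assays, 10 control and 2 plant miRNA assays, with no normalisation; baseline and threshold settings are not given in the sources used here. Whether the response of very early assays stays proportional after preamplification was not tested. An assay was placed on card A or B by the length of its assay number. Levels were computed as the reference Ct minus Ct. MiRNAs with a Ct under 40 in at least 3 of 6 samples (439) were tested with limma 3.58.1 (lmFit, eBayes, two-sided) in R 4.3.3, with Benjamini-Hochberg adjustment over all tested assays. The limma step was checked on simulated data, drawn independently for each assay and sample. These held no shared error of the reference and no values fixed at the limit of 40, so the check does not cover these features. For raw Ct and within-sample differences, an exact permutation test, two-sided, enumerated all 20 assignments of samples to groups (Python 3.11.15). For the correlations, the exact permutation P enumerated all pairings of the values over the 6 samples. Precision is set by the number of mice, and no read depth exists for PCR cards. The members, the lists and the tests were chosen with earlier results of these data known. The miRNAs named were the members, the fixed lists and pairs, the 5 closest matches of each member, and their neighbours in Ct order; no value column was left unmapped.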

Additional observations from a re-analysis of the deposited data

Results flagged for a closer look

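The plant miRNA assay on card A, a negative control that enters no comparison, gave a Ct of 39.776 in EC-Dicerflox replicate 1, a signal just before the limit of 40 in data outside the comparisons. The Ct of miR-143 and miR-145 lay between 14.5 and 16.5 in all samples.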

How the results depend on the processing

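MiR-143 kept its direction and stayed short of the adjusted threshold in all 19 alternatives (adjusted limma P from 0.83 to 0.999). Over these settings the median difference of all tested miRNAs ran from -0.48 to 0.0067. MiR-145 did not pass in any of its 19 (adjusted limma P from 0.89 to 0.999), and its difference changed sign with U6 as the only reference (-0.17) and on leaving out EC-Dicerflox replicate 3 (-0.01175, the lowest of a leave-one-out range that reached 0.39). With a replicate block the differences were -0.10 for miR-143 and 0.21 for miR-145 (adjusted limma P of 0.96 and 0.89), and the block changed no call. Samples with the same number had correlations of their deviations of 0.24, 0.03 and 0.39, and no pairing by replicate number was assumed. MiR-145 minus miR-143 stayed positive, between 0.23 and 0.42 with any 1 mouse omitted.

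The miRNAs past the unadjusted threshold numbered 11 with U6 alone, 12 with U6 on card A alone (added after the data were seen), and between 8 and 22 with any 1 mouse omitted. With a batch term for replicate 3 of both groups, 1 miRNA passed the adjusted threshold. With U6 alone, Pearson's r of the members was 0.92 and had an unadjusted exact P under the threshold (0.039), but not after adjustment (0.21), and the P of rho was 0.24.

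Of the 11 within-sample differences, 6 changed sign under some alternative. With replicates left out in turn, miR-143 minus miR-126-3p ranged from -0.10 to 0.12, miR-143 minus miR-223 from -0.0675 to 0.29, miR-143 minus miR-451 from -0.42 to 0.12, miR-143 minus miR-21 from -0.0765 to 0.0687 and miR-145 minus miR-451 from -0.16 to 0.38. Without a change of sign, miR-143 minus miR-133a ranged from -0.23 to -0.05, miR-145 minus miR-223 from 0.16 to 0.58, miR-145 minus miR-133a from 0.0082 to 0.35 and miR-145 minus miR-21 from 0.20 to 0.48. In replicates 1 and 2 alone, miR-143 minus miR-126-3p was -0.051 and miR-143 minus miR-223 -0.0335. With miR-126-5p in place of miR-126-3p, chosen after the data were seen, the values were -0.34 for miR-143 and -0.037 for miR-145. For all of these the cause was not tested. A reference per card applied to no within-sample difference, since all these assays lie on card A.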
